A study of Mus musculus with 4 samples.

Results

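Cxcl1, Cxcl2, Cxcl3, Cxcr2 and Cxcr4 are 5 genes that govern where neutrophils go, chosen by symbol from the 27998 genes measured, and all 5 had 1 row each. They were described in neutrophils, macrophages, microglia and the other cell classes of 4 single-cell RNA libraries of mouse brain leukocytes. In neutrophils Cxcl2 differed by up to 34.3-fold in the comparisons made, and by up to 38.4-fold without the highest cells. Summed over the neutrophils of a library, it was high in both anti-CTLA-4 libraries, lower in the IgG library and lowest in healthy brain. Few cells held most of it in both anti-CTLA-4 libraries. With CD4 depletion its high level came from a cluster of neutrophils nearly confined to that library. In the cluster with most anti-CTLA-4 and IgG neutrophils, the level with CD4 depletion was not above that of IgG. Cxcr2 was held mostly by neutrophils in all 4 libraries, and Cxcr4 was spread over neutrophils, monocytes, macrophages and lymphocytes but was near 0 in microglia. Cxcl3 was sparse and Cxcl1 was almost undetected.

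Tumor mice were C57BL/6J, 8 to 12 weeks old when glioma-005 cells, a mouse glioma line, were placed in the hippocampus. From day 7, 1 group received anti-CTLA-4 (clone 9H10) with anti-CD4 (clone GK1.5), an antibody that removes CD4+ cells (the depletion library). Another group received anti-CTLA-4 without CD4 depletion, and the third received isotype control rat IgG2a (clone LTF-2). Each of these 3 libraries was a pool of 3 tumors collected on day 35, and the fourth was untreated normal brain without a tumor, with neither age nor pooling stated. In every library microglia (CD45int CX3CR1+), CD45hi CD11b+ myeloid cells, CD45hi CD3+ T cells and the remaining CD45hi cells were sorted and mixed in equal parts, so shares of cells between these fractions were set by the mixing. Each condition is 1 library, so no difference has a replicate check and no test of conditions was possible.

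CXCL1, CXCL2 and CXCL3 are small secreted chemokines with an ELR motif. They bind CXCR2 on neutrophils and draw them out of the marrow and into inflamed tissue, and macrophages, stromal cells and neutrophils themselves can make them after NF-kappaB signalling. CXCR4 binds CXCL12 and holds neutrophils in the marrow, is known to be high on aged neutrophils in the mouse, and is also used by monocytes, B cells and T cells. CXCR2 and CXCR4 are thus commonly described as an opposed pair in neutrophil traffic.

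The 3 ligand genes lie on the + strand of chromosome 5 (mm10) within 119836 bases, 10755 bases between Cxcl1 and Cxcl2 and 101640 between Cxcl3 and Cxcl1, a gap that also holds Cxcl15: Cxcl3 at chr5:90786103-90789600, Cxcl1 at chr5:90891241-90893115 and Cxcl2 at chr5:90903871-90905938. The receptor genes lie on chromosome 1, Cxcr2 at chr1:74153989-74161246 on the + strand and Cxcr4 at chr1:128588199-128592293 on the − strand. The 120 bases before each gene's start, taken as the more upstream of its RefSeq and GENCODE starts (RefSeq sequence, build GRCm38.p6, 5′ to 3′ on the gene's strand) are shown because the 3 ligand genes, of which Cxcl1 was nearly undetected, carry the same pair of motifs. Capitals mark GGGAATTTCC, the match to the NF-kappaB consensus that all 3 ligand promoters hold, and ATAAAAG, a run known from core promoters.
Cxcl1, chr5:90891121-90891240, + strand: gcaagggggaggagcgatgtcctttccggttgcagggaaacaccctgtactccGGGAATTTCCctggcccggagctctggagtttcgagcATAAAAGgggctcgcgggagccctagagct
Cxcl2, chr5:90903751-90903870, + strand: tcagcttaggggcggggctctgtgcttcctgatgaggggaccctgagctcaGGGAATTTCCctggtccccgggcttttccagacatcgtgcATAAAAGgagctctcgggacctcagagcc
Cxcl3, chr5:90785981-90786100, + strand: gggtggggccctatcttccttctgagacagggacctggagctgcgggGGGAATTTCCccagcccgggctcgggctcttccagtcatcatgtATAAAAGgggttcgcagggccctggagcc
Cxcr2, chr1:74153869-74153988, + strand: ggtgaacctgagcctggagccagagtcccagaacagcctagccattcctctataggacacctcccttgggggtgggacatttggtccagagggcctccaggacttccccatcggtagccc
Cxcr4, chr1:128592300-128592419, - strand: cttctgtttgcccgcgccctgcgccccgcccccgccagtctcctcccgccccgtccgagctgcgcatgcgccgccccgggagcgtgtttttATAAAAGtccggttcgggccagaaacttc
All 3 ligand promoters held GGGAATTTCC, whose first base lay 67 bases before that start in Cxcl1, 69 in Cxcl2 and 73 in Cxcl3. Searched on both strands in windows of 300 bases, 29 of 32851 RefSeq promoters held it (0.0883%). This exact run was picked because the 3 ligand promoters share it, so its rarity is no test. Matches to the wider consensus were not counted over all promoters. ATAAAAG was in the ligand promoters and in that of Cxcr4, and in 1779 of the 32851 (5.42%). Neither motif was in the Cxcr2 window. A match is a run of letters and not evidence of binding.

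After filters 8291 cells were kept, 3706 in the depletion library, 1763 in the anti-CTLA-4 library, 1434 in the IgG library and 1388 in healthy brain, with a median of 4359 to 5853 UMIs (counted RNA molecules) per cell. Cells were clustered without the 5 genes among the variable genes and classes were named from marker lists, so every class name means "like" that cell type. Neutrophils numbered 508 in the depletion library, 47 in the anti-CTLA-4 library, 49 in the IgG library and 172 in healthy brain. These came from different clusters: cluster 9 held 389 of the depletion cells and 1 cell of healthy brain, cluster 15 held 110, 43 and 45 cells of the depletion, anti-CTLA-4 and IgG libraries, and cluster 16 held 9, 4 and 4 cells of the tumor libraries and 171 of healthy brain. Cluster 9 is thus nearly 1 library (99.7%) and may be that library rather than a cell state. All 3 had neutrophil markers (18, 14 and 24 of 30 for clusters 9, 15 and 16), but cluster 15 had 1 neutrophil and 1 macrophage marker among its 10 leading genes against all other cells, and 5 neutrophil markers against cells outside the class. Camp and Ngp, markers of young neutrophils, had no UMI in the anti-CTLA-4 and IgG neutrophils, and Elane and Mpo had none in neutrophils of any library. Macrophages numbered 719, 256 and 247 in the tumor libraries and 2 in healthy brain, so they were not compared with healthy brain, and cluster 8 held 442 of the depletion macrophages. The healthy brain library also differed from the tumor libraries in sex-linked genes: Xist stood at 715, 889 and 950 CPM (UMIs of a gene scaled to a total of 1000000) in the depletion, anti-CTLA-4 and IgG libraries and at 2.19 CPM in healthy brain, and Ddx3y at 0.451, 0.244 and 1.94 CPM and at 68.0 CPM. Sex and tumor therefore cannot be told apart in any comparison with healthy brain. The depletion library shared 6, 1 and 2 cell barcodes with the anti-CTLA-4, IgG and healthy brain libraries, and no other pair shared any.

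Levels are CPM over the summed UMIs of a class in a library, with exact Poisson 95% intervals. Shares of cells with a UMI have exact Clopper-Pearson intervals, and a CPM ratio of 2 libraries has an exact binomial interval. All of these cover counting error only. A size rule was used in place of a test. A gene met it where the CPM ratio was 2 or more, the pair of libraries summed to 50 UMIs or more, and 10% or more of cells in the higher library held a UMI.

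Cxcl1, the mouse gene often called KC, was close to absent, with 2 UMIs in all: 1 in a macrophage of the depletion library and 1 in a monocyte of the IgG library. Neutrophils had none in any library, where 3 counts would correspond to 2.62, 25.2, 21.5 and 3.25 CPM in the depletion, anti-CTLA-4, IgG and healthy brain libraries. Over all kept cells Cxcl2 had 2596 UMIs and Cxcl3 148, so the ligand values below are mainly those of Cxcl2.

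Cxcl2, known as MIP-2, was high in a small part of the tumor neutrophils. In neutrophils it stood at 1486 CPM (95% interval 1416 to 1559) in the depletion library, 1720 (1493 to 1973) in the anti-CTLA-4 library, 222 (151 to 316) in the IgG library and 43.3 (30.9 to 58.9) in healthy brain. The order put both anti-CTLA-4 libraries above IgG and IgG above healthy brain, and the intervals of the highest 2 overlapped. A UMI was found in 32.5% (28.4 to 36.7) of neutrophils of the depletion library, 19.1% (9.15 to 33.3) of the anti-CTLA-4 library, 16.3% (7.32 to 29.7) of the IgG library and 7.56% (4.09 to 12.6) of healthy brain. With each cell thinned to 1000 UMIs, which left out shallower cells and kept 447 of 508, 47 of 47, 48 of 49 and 168 of 172, the shares were 24.6%, 14.9%, 12.5% and 4.76%, in the same order. Neutrophils had median depths of 1875.5, 2415, 2623 and 3290 UMIs, and B cells, which should lack the gene, of 2753.5, 4926, 5053 and 3401 UMIs. As a measure of free RNA, B cells had 0 Cxcl2 UMIs in each of the 4 libraries (136, 187, 72 and 109 cells, with upper bounds of the share of 2.68%, 1.95%, 4.99% and 3.33%). The neutrophil shares in all 4 libraries thus lay above the B cell shares.

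**Figure D1:**
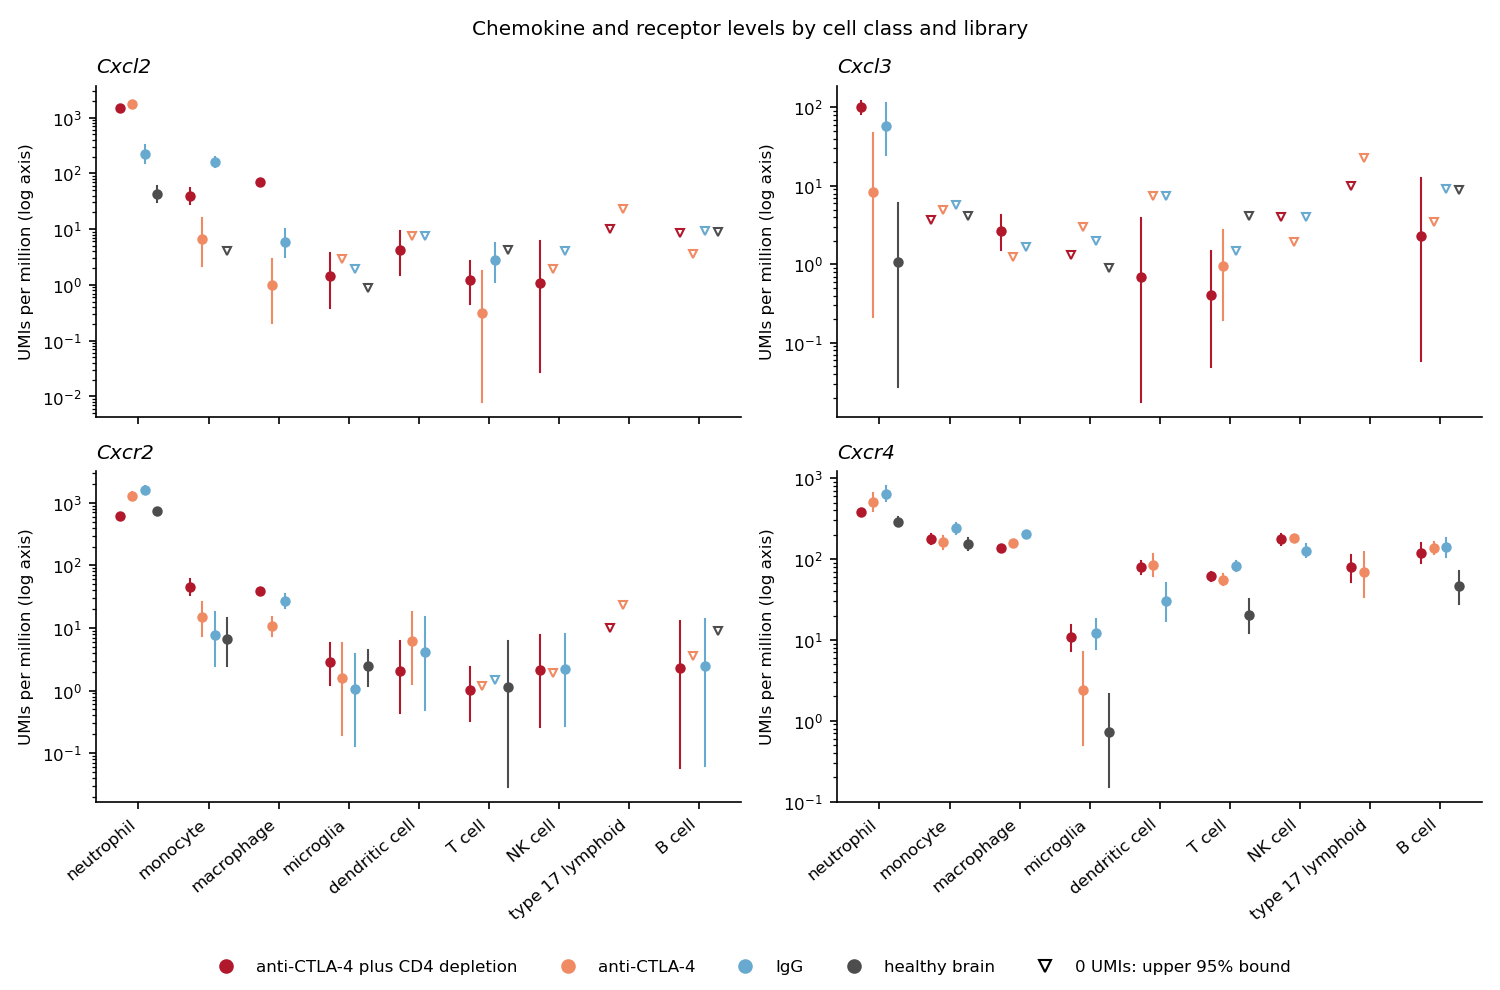
Levels of Cxcl2, Cxcl3, Cxcr2 and Cxcr4 by cell class and library, in CPM on a log axis; points are summed counts of a class, bars are exact Poisson 95% intervals and open triangles are the upper bound where no UMI was counted. Cxcl2 and Cxcr2 peak in neutrophils, with Cxcl2 in neutrophils at 1486, 1720, 222 and 43.3 CPM in the depletion, anti-CTLA-4, IgG and healthy brain libraries, whereas Cxcr4 is spread over most classes.

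Individual cells differed far more than the shares did. In the depletion library 343 neutrophils had no Cxcl2 UMI, 49 had 1, 82 had 2 to 9 and 34 had 10 or more, and those 34 held 79.2% of all Cxcl2 UMIs of the class. In the anti-CTLA-4 library 38 of 47 had none, 3 had 1, 1 had 2 to 9 and 5 had 10 or more. A single anti-CTLA-4 neutrophil with 125 of 205 UMIs held 61.0%, so its level rests largely on 1 cell. In the IgG library the highest cell had 10 UMIs, and in healthy brain no cell reached 10 and the highest had 8.

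Without the highest cell of each library Cxcl2 stood at 1333 CPM (1267 to 1402) in the depletion library, 683 (542 to 850) in the anti-CTLA-4 library, 154 (95.5 to 236) in the IgG library and 34.8 (23.8 to 49.1) in healthy brain. The depletion over anti-CTLA-4 ratio was 0.864 (0.747 to 1.004) with all cells and 1.95 (1.56 to 2.47) without those cells, so its direction turned with 1 cell per library, and no difference between the anti-CTLA-4 libraries can be read from it. The other differences kept their direction. The anti-CTLA-4 library was 7.74-fold (5.29 to 11.7) above the IgG library, and 4.43-fold (2.71 to 7.54) without the highest cells. The IgG library was 5.14-fold (3.11 to 8.42) above healthy brain, and 4.44-fold (2.43 to 7.94) without them. The depletion library was 34.3-fold (25.1 to 48.2) above healthy brain, and 38.4-fold (27.1 to 56.3) without them.

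These 3 differences met the size rule. With thinned cells the IgG over healthy brain call was not met (15 and 11 UMIs, under the 50 asked for), at a log2 ratio of 2.25 against 2.36 at own depth. The share of all genes that met it as higher was 2.62% for anti-CTLA-4 over IgG (877 genes with 50 UMIs; 2.62% lower), 35.5% for IgG over healthy brain (2264 genes; 13.8% lower) and 33.9% for depletion over healthy brain (4270 genes; 8.24% lower). Against healthy brain, passing the rule was therefore common: the median log2 ratio of all genes was 0.60 for IgG and 0.81 for depletion. Relative to those medians Cxcl2 was 1.76 higher on the log2 scale in IgG neutrophils and 4.29 higher in depletion neutrophils. With median-of-ratios scaling in place of total counts the log2 ratios were 1.28 and 4.41. With total counts 803 genes were called higher and 313 lower for IgG over healthy brain, and 191 and 744 with median-of-ratios scaling. For depletion over healthy brain the numbers were 1447 and 352 with total counts, and 772 and 808 with that scaling.

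**Figure D2:**
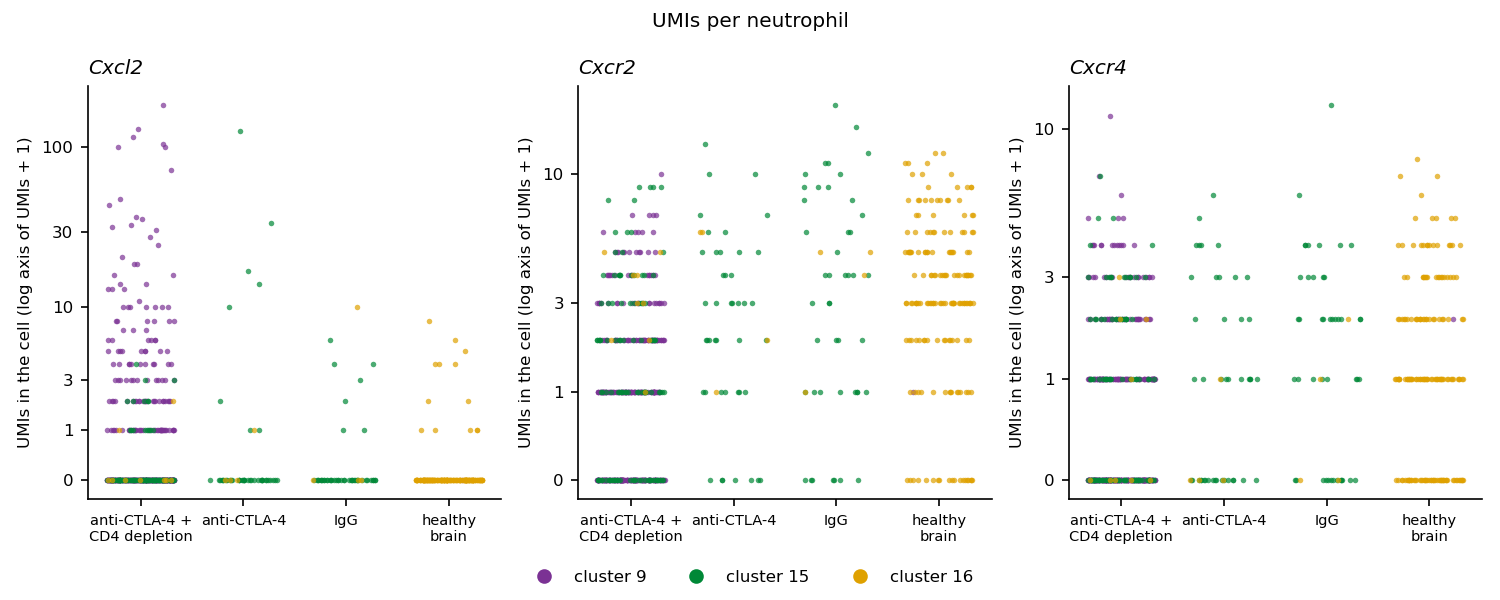
UMIs of Cxcl2, Cxcr2 and Cxcr4 in each neutrophil (1 point per cell; log axis of UMIs plus 1), by library and coloured by cluster 9, 15 or 16. For Cxcl2 a small upper tail stands out, 34 cells with 10 or more UMIs in the depletion library, 5 in the anti-CTLA-4 library, 1 in the IgG library and none in healthy brain.

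Cluster 15 holds neutrophils of all 3 tumor libraries and so allows a comparison within 1 cluster. There Cxcl2 stood at 118 CPM (78.7 to 171) in the 110 depletion cells, 1838 (1595 to 2109) in the 43 anti-CTLA-4 cells and 162 (100 to 247) in the 45 IgG cells. The depletion cells were 15.5-fold (10.4 to 23.9) below the anti-CTLA-4 cells, and the anti-CTLA-4 cells 11.4-fold (7.24 to 18.8) above the IgG cells. Without the highest cell of each library these were 102 CPM and 725 CPM (a ratio of 0.141, 0.0855 to 0.225) and 725 CPM and 118 CPM (6.16, 3.52 to 11.5). The shares of cells with a UMI were close, at 14.5%, 18.6% and 15.6%. The high Cxcl2 of the depletion library therefore came from cluster 9, where 147 of 389 cells had a UMI (37.8%) and the level was 1868 CPM (1779 to 1960). Within cluster 15, 4.13% of genes were called lower for depletion over anti-CTLA-4 and 2.42% lower and 3.14% higher for anti-CTLA-4 over IgG.

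Outside neutrophils Cxcl2 was carried by few cells. Depletion macrophages had 427 UMIs (70.6 CPM, 64.1 to 77.6; 9.87% of cells), anti-CTLA-4 macrophages 3 UMIs (1.01 CPM; 0.781%) and IgG macrophages 13 UMIs (5.87 CPM; 1.62%). The depletion level was 69.7-fold (23.7 to 339) the anti-CTLA-4 level, but the share of cells missed 10%, and 10 cells with 10 or more UMIs held 66.5%. As in neutrophils, few cells carried most of the gene. Without cluster 8 the levels were 28.0 CPM and 1.02 CPM, a ratio of 27.6 (9.00 to 137). IgG monocytes had 104 UMIs (159.6 CPM), of which 1 cell held 74, and stood at 46.9 CPM without it. Depletion and anti-CTLA-4 monocytes had 40 and 5 UMIs (39.5 and 6.73 CPM), and the 129 healthy brain monocytes had none. Microglia had 4 UMIs in the depletion library (0.877% of 456 cells) and 0 in the other 3 libraries. Neutrophils thus held 77.8%, 95.8%, 20% and 97.6% of a library's Cxcl2 UMIs in the depletion, anti-CTLA-4, IgG and healthy brain libraries, and monocytes held 67.1% in the IgG library. These shares follow the numbers of cells and their depth: with every class given equal weight, IgG neutrophils held 56.9% and IgG monocytes 40.9%.

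Cxcl3, a close relative of Cxcl2 that also acts through CXCR2, was found in few cells, most of which also had Cxcl2. Neutrophils had 115 UMIs in 31 cells of the depletion library (100.5 CPM, 83.0 to 121), 1 UMI in the anti-CTLA-4 library, 8 UMIs in 1 cell of the IgG library and 1 UMI in healthy brain. Of the 31 depletion cells 23 also had a Cxcl2 UMI (74.2%), whereas 29.8% of the cells without Cxcl3 did. Thinned to 1000 UMIs it was 13 of 18. Detection was at 6.10% of neutrophils in the depletion library, under the 10% of the size rule, and 2 cells with 10 or more UMIs held 50.4% of the UMIs. The depletion over anti-CTLA-4 ratio was 12.0 with an interval of 2.11 to 477, which the single UMI leaves wide. The transcripts of Cxcl2 and Cxcl3 share an exact run of 110 bases, far from both 3′ ends (939 and 850 bases). A read wholly within it would match both genes, and how such reads were counted cannot be checked from the counts. Runs shared with Cxcl1 were 23 bases at most.

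Cxcr2, the receptor of all 3 ligands, was held mostly by neutrophils. In neutrophils it stood at 620 CPM (576 to 668) in the depletion library, 1284 (1089 to 1504) in the anti-CTLA-4 library, 1606 (1403 to 1831) in the IgG library and 730 (676 to 788) in healthy brain. The depletion library was lowest and the anti-CTLA-4 and IgG libraries highest, with overlapping intervals for the highest pair. A UMI was found in 59.3% (54.8 to 63.6), 85.1% (71.7 to 93.8), 85.7% (72.8 to 94.1) and 89.0% (83.3 to 93.2) of cells in that order of libraries, and in 42.5%, 74.5%, 70.8% and 57.1% after thinning. In microglia the shares were 0.877%, 0.971%, 0.692% and 1.01%, and B cells had 1, 0, 1 and 0 UMIs, so the neutrophil shares stood far above those cells. Neutrophils held 70.2%, 75.4%, 73.0% and 97.1% of all Cxcr2 UMIs.

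Depletion neutrophils had 2.07-fold (1.73 to 2.47) less Cxcr2 than anti-CTLA-4 neutrophils, which met the size rule (8.21% of 3460 genes were called lower and 10.3% higher), but the log2 ratio was −1.05 with total counts and −0.89 with median-of-ratios scaling, which ended the call, and the genes called were 357 higher and 284 lower with total counts and 463 and 209 with that scaling. In cluster 15 alone, the level was 922 CPM in the depletion cells and 1244 CPM in the anti-CTLA-4 cells, a ratio of 0.742 (0.597 to 0.925) that did not reach 2-fold, so part of the difference lay in cluster 9, at 518 CPM (472 to 567) and 55.8% of cells. The anti-CTLA-4 over IgG ratio was 0.799 (0.646 to 0.986). IgG neutrophils had 2.20-fold (1.88 to 2.56) more Cxcr2 than healthy brain neutrophils (log2 1.14, 0.53 above the median of all genes), but 0.05 on the log2 scale with median-of-ratios scaling and 0.70 with the mean of per-cell CPM, so this difference rests on the scaling. Depletion neutrophils stood at 0.849 (0.763 to 0.945) of healthy brain, a log2 ratio 1.04 below the median of all genes and −0.93 with median-of-ratios scaling.

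Macrophages gave the other Cxcr2 difference. Cxcr2 stood at 38.7 CPM (14.05% of cells) in depletion macrophages, 10.8 CPM (3.12%) in anti-CTLA-4 macrophages and 27.1 CPM (7.29%) in IgG macrophages. Depletion was 3.58-fold (2.47 to 5.36) above anti-CTLA-4 and met the size rule, as did 2.97% of genes in that direction and 4.88% in the other. Without cluster 8, which is nearly all depletion cells and had 53.5 CPM, the levels were 11.7 CPM and 10.8 CPM, a ratio of 1.08 (0.612 to 1.88), so no difference of that size was seen outside that cluster. Without cluster 8, 0.4% of genes were called higher and 2% lower for depletion over anti-CTLA-4, and 0.597% and 0.771% for anti-CTLA-4 over IgG. The anti-CTLA-4 over IgG ratio was 0.399 (0.251 to 0.622), under the share asked for by the rule; no gene of the 5 met it there (0.55% of genes were called higher and 0.868% lower). Monocytes had 45.4, 14.8, 7.68 and 6.65 CPM of Cxcr2 in the depletion, anti-CTLA-4, IgG and healthy brain libraries, and none of the 5 genes met the rule in monocytes in any comparison (0.978%, 0.853% and 2.62% of genes were called higher for depletion over anti-CTLA-4, anti-CTLA-4 over IgG and IgG over healthy brain, and 1.6%, 0.468% and 1.96% lower).

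Transcripts of neutrophil marker genes were present in the macrophages and moved with the ligand and receptor. The summed level of 30 neutrophil markers was 4850 CPM in depletion macrophages (30 of 30 with a UMI), 541 CPM in anti-CTLA-4 macrophages (19 of 30) and 1093 CPM in IgG macrophages (21 of 30), against 97085, 58446 and 50877 CPM in the neutrophils of those libraries. Among the defining markers Ly6g, Camp, Ngp, Elane and Mpo had no UMI in anti-CTLA-4 and IgG macrophages. Camp, Ngp, Elane and Mpo had none in the neutrophils of those libraries either, so their absence from the macrophages is uninformative about neutrophil RNA there. In cluster 8 the median level was 9515 CPM in the 87 depletion cells with a Cxcr2 UMI and 747 CPM in the 355 without, and those cells also had more UMIs in all (medians of 11114 and 7496). For Cxcl2 the medians were 7553 CPM in 54 cells with and 961 CPM in 388 without a UMI. Cxcl2 UMIs numbered 14.6 per 1000 marker UMIs in depletion macrophages and 15.3 in depletion neutrophils. Cxcr2 UMIs numbered 7.98 and 6.39, so in that library the ratios of both genes to the marker sum lay close in both classes. In the IgG library Cxcl2 had 5.37 in macrophages and 4.37 in neutrophils and Cxcr2 24.8 and 31.6. In the anti-CTLA-4 library Cxcr2 had 19.99 in macrophages and 21.97 in neutrophils, but Cxcl2, with 3 macrophage UMIs, 1.87 and 29.4. The marker sum is not specific to neutrophils, so ratios to it, close or not, do not tell the source of the RNA. A neutrophil marker was among the leading genes of macrophage cluster 8 against all other cells. All 30 markers had a UMI in depletion macrophages, whereas Elane and Mpo had none in neutrophils of any library. For Cxcr4 the marker medians were 1605 CPM in 232 cells with and 795 CPM in 210 without a UMI in cluster 8, and 246 and 237 CPM in cluster 2 of the IgG library, a smaller gap than for Cxcr2 in both. Free RNA, doublets and RNA made by the macrophages cannot be told apart from these values, and their part in the macrophage levels was not tested.

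**Figure D3:**
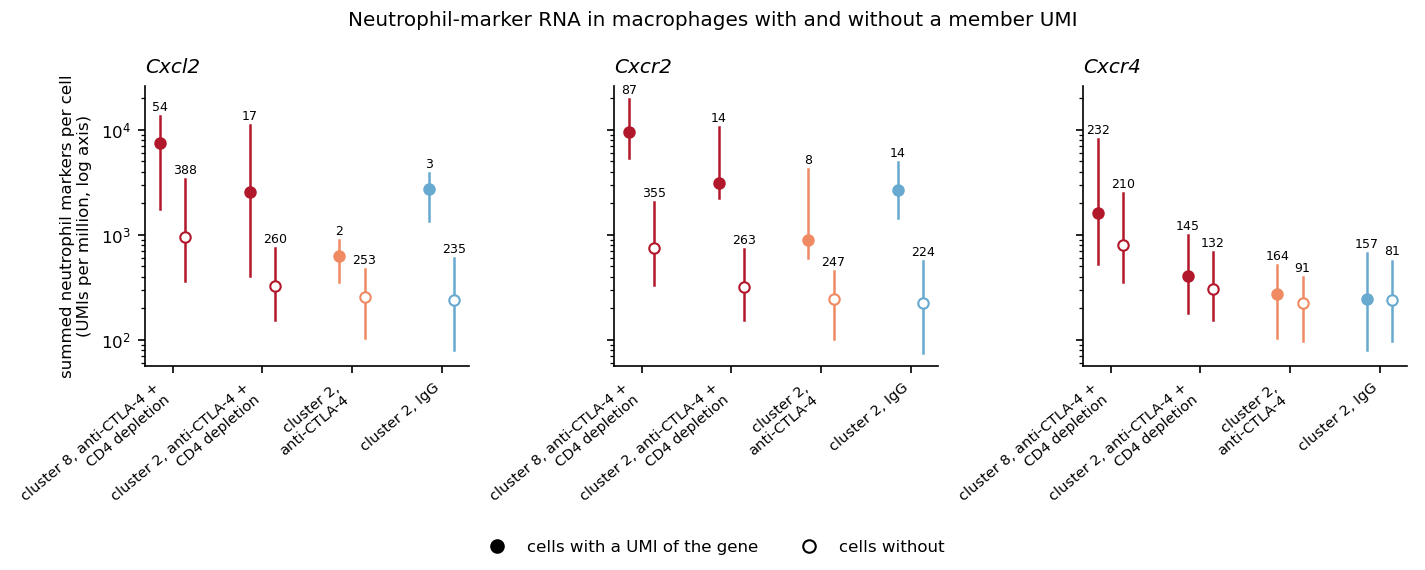
Summed level of 30 neutrophil markers (CPM, median and quartiles over cells) in macrophages with a UMI of Cxcl2, Cxcr2 or Cxcr4 (filled) and without (open), for cluster 8 of the depletion library and cluster 2 of the 3 tumor libraries; the numbers of cells stand above. Cells with Cxcr2 carry the higher marker levels, 9515 CPM against 747 CPM in cluster 8, and for Cxcr4 the medians are 1605 CPM against 795 CPM there and lie close in cluster 2.

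Cxcr4, the CXCL12 receptor, had 5227 UMIs spread over most classes. In neutrophils it stood at 377 CPM (343 to 415) in the depletion library, 512 (392 to 658) in the anti-CTLA-4 library, 645 (519 to 793) in the IgG library and 291 (257 to 328) in healthy brain. IgG was highest and healthy brain lowest, and the intervals of neighbours in the order IgG, anti-CTLA-4 and depletion overlapped. A UMI was found in 44.7%, 55.3%, 69.4% and 69.8% of neutrophils, and in 29.1%, 31.9%, 50% and 36.3% after thinning.

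The IgG over healthy brain ratio of 2.22 (1.73 to 2.83) met the size rule, but its log2 value of 1.15 was 0.55 above the median of all genes and 0.07 with median-of-ratios scaling, so it too rests on the scaling. For depletion over healthy brain the ratio was 1.30 (1.11 to 1.52), and the log2 value of 0.37 turned to −0.32 with median-of-ratios scaling. The depletion over anti-CTLA-4 ratio was 0.737 (0.563 to 0.981) and the anti-CTLA-4 over IgG ratio 0.793 (0.563 to 1.11), both under the size asked for. Cluster 15 gave 478, 541 and 670 CPM in the 3 tumor libraries, none past the rule. In the depletion library 132 of 508 neutrophils had both receptors. Cxcr4 was in 43.9% of neutrophils with Cxcr2 and in 45.9% of those without, shares that lay close. Likewise Cxcr2 was in 61.8% of depletion neutrophils with Cxcl2 and in 58.0% of those without.

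**Figure D4:**
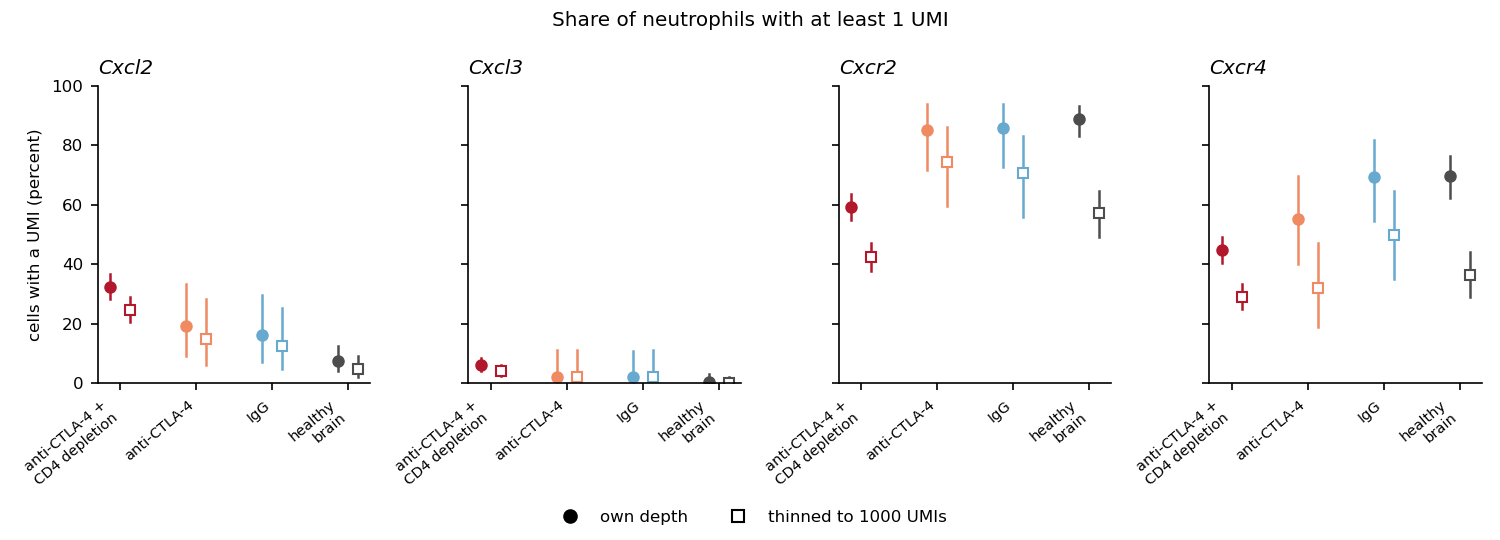
Share of neutrophils with a UMI of Cxcl2, Cxcl3, Cxcr2 and Cxcr4 by library, at each cell's own depth (filled circles) and with cells thinned to 1000 UMIs (open squares), with exact 95% intervals. For Cxcl2 the shares are 32.5%, 19.1%, 16.3% and 7.56% at own depth in the depletion, anti-CTLA-4, IgG and healthy brain libraries, and for Cxcr2 the depletion library is lowest at both depths.

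Beyond neutrophils, Cxcr4 was found in monocytes (179, 161, 241 and 155 CPM in the depletion, anti-CTLA-4, IgG and healthy brain libraries), NK cells (177, 180 and 127 CPM in the 3 tumor libraries) and macrophages (137, 156 and 202 CPM). The unnamed cells of healthy brain had 85 UMIs (193 CPM). No ratio in these classes reached 2: anti-CTLA-4 over IgG was 0.670 (0.524 to 0.855) in monocytes, 0.774 (0.679 to 0.884) in macrophages and 1.42 (1.14 to 1.76) in NK cells. In NK cells none of the 5 genes met the size rule (0.29% and 0.844% of genes were called higher and 1.43% and 0.413% lower in the 2 comparisons). Macrophages held 38.7%, 33.5% and 38.4% of the Cxcr4 UMIs of the tumor libraries, and neutrophils 20.1%, 4.41% and 7.73%. Macrophages outnumbered neutrophils there and were deeper (medians of 7629, 10000 and 8941 UMIs per cell against 1875.5, 2415 and 2623). In healthy brain neutrophils held 50.2%.

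T and B cells of the IgG library had more Cxcr4 than those of healthy brain. The T cells came from different clusters: cluster 7 held 122 healthy brain cells (85.9% of the class there) and 94 IgG cells (23.2%). The T cell ratio thus sets unlike mixtures of T cells beside each other, and levels within T cell clusters were not compared. T cells stood at 60.9, 55.8 and 83.0 CPM in the depletion, anti-CTLA-4 and IgG libraries and 20.3 CPM in healthy brain, and IgG over healthy brain was 4.09 (2.52 to 7.03), past the size rule as for 10.5% of genes, with 1.94% called lower. B cells stood at 119, 137 and 141 CPM and at 45.8 CPM, and IgG over healthy brain was 3.08 (1.81 to 5.49), past the rule as for 2.4% of genes; 8.62% were called lower. The log2 ratios with median-of-ratios scaling were 1.90 and 1.82. Detection was 9.02% of IgG T cells and 2.82% of healthy brain T cells after thinning, and 13.2% of IgG B cells and 3.67% of healthy brain B cells, and neither call was met on thinned cells, where the UMI or share minimum was missed while the log2 ratios were 1.94 in T cells (2.03 at own depth) and 2.003 in B cells (1.62). The differences between the depletion, anti-CTLA-4 and IgG libraries did not meet the rule in T or B cells (0.112% and 0.149% of genes were called higher and 0.919% and 0.162% lower in T cells, and 1.39% and 1.41% higher and 2.26% and 1.45% lower in B cells). Cxcr4 in dendritic cells was 79.5, 85.5 and 30.6 CPM in the depletion, anti-CTLA-4 and IgG libraries, and in type 17 lymphoid cells it was 78.7 and 68.2 CPM in the depletion and anti-CTLA-4 libraries.

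Microglia had little of any of the 5 genes. Cxcr4 had 30, 3, 23 and 3 UMIs in the depletion, anti-CTLA-4, IgG and healthy brain libraries (10.8, 2.41, 12.2 and 0.728 CPM), found in 4.39%, 1.46%, 4.84% and 0.378% of cells. IgG over healthy brain was 16.8 (5.07 to 87.3), but neither the UMI total nor the share reached the size rule, and in microglia no gene of the 5 met it (2.64%, 0.547% and 4.02% of genes were called higher and 5.18%, 0.984% and 7.11% lower in depletion over anti-CTLA-4, anti-CTLA-4 over IgG and IgG over healthy brain). Cluster 10 held 267 of the 456 depletion microglia and had none of its microglia markers among its 10 leading genes against all other cells and 4 against cells outside the class. Without it Cxcr4 stood at 2.78, 2.47, 10.99 and 0.739 CPM, so the depletion value was much lower without it and the IgG value was not. No gene of the 5 met the rule there either, where 1.1%, 0.545% and 4.14% of genes were called higher and 1.52%, 0.897% and 6.88% lower in the same 3 comparisons. Cxcr2 had 8, 2, 2 and 10 UMIs in microglia.

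The other genes of the 2 pathways were few. Of the CXCR2 pathway, the ligands Cxcl5 and Cxcl15 had 0 UMIs and Ppbp 1, the other receptor Cxcr1 had 20 (7, 1, 2 and 5 of them in neutrophils of the 4 libraries) and the scavenger Ackr1 2, so none of the 5 could be compared. Cxcl12, the ligand of CXCR4, had 7 UMIs in all, 1 in anti-CTLA-4 microglia and 6 in healthy brain microglia. Stromal and endothelial cells, the usual source of CXCL12, were not sorted. Of 8 genes around CXCR4, 4 had 20 UMIs in neutrophils. Mif, a cytokine that also binds CXCR2 and CXCR4, stood at 548 CPM in depletion neutrophils and 1158 CPM in anti-CTLA-4 neutrophils, a ratio of 0.473 (0.393 to 0.573), and at 760 CPM in IgG and 18.4 CPM in healthy brain neutrophils. Its receptor chain Cd74 stood at 143 CPM in anti-CTLA-4 and 423 CPM in IgG neutrophils (0.337, 0.184 to 0.586), and at 423 CPM in IgG against 5.41 CPM in healthy brain. Cd74 had 238463 UMIs over all kept cells, and the part of free RNA in its neutrophil levels was not tested.

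Of genes known as NF-kappaB targets, 5 of 17 and 1 of 13 met the size rule as lower between the tumor libraries. None met it as higher. Of all genes, 8.21% and 2.62% were called lower there, and 10.3% and 2.62% higher. Against healthy brain 7 of 14 and 7 of 17 of the targets met it as higher, where 35.5% and 33.9% of all genes were called higher. In this and the next 2 paragraphs, list counts run over genes with at least 20 UMIs, but shares of all genes over those with at least 50. Such a share is higher than it would be over genes with at least 20 UMIs. Over those, 803 of 4290 genes were called higher for IgG over healthy brain and 1447 of 6507 for depletion over healthy brain. These lists, and those that follow, were among the genes clustered, so their levels describe the clusters and support nothing else. For depletion over anti-CTLA-4, 17 of 20 had 20 UMIs, 0 met the rule as higher and 5 as lower, with a median log2 ratio of −0.90 against 0.01 for all genes with at least 20 UMIs, the gene set beside which list medians are given. The chemokine Ccl4 stood at 223 CPM in depletion and 1334 CPM in anti-CTLA-4 neutrophils (0.167, 0.136 to 0.205), and the adhesion gene Icam1 at 45.4 and 193 CPM (0.235, 0.142 to 0.403). For anti-CTLA-4 over IgG 1 of 13 met the rule, the growth factor Csf1 at 252 against 545 CPM (0.462, 0.292 to 0.713), and the median was 0.39 against −0.04. For IgG over healthy brain 7 of 14 were higher and 1 lower, with a median of 1.98 against 0.70, and for depletion over healthy brain 7 of 17 were higher and 0 lower, with a median of 2.07 against 0.83. There Ccl4 stood at 818 CPM in IgG neutrophils, 223 CPM in depletion neutrophils and 2.16 CPM in healthy brain neutrophils.

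Granule genes of young neutrophils set the healthy brain cells apart. All 9 met the rule as lower in IgG and in depletion neutrophils against healthy brain, with median log2 ratios of −6.39 and −3.71. Of all genes 13.8% and 8.24% were called lower there. Camp, a granule antimicrobial peptide, had 0 UMIs in IgG, 9 UMIs in depletion and 17976 UMIs in healthy brain neutrophils. In depletion over anti-CTLA-4 neutrophils 4 of 7 were higher and 0 lower, with a median of 3.30, beside 10.3% of all genes called higher. Lcn2, an iron-binding granule protein, stood at 1651 and 168 CPM there (9.83, 6.35 to 16.1), and the chitinase-like Chil3 at 763 and 16.8 CPM (45.4, 12.5 to 376). The rise was not particular to neutrophils. For the same comparison 2 of 8 were higher in macrophages (median 2.46, beside 2.97% of all genes). In monocytes 2 of 4 were higher (median 1.14, beside 0.978%). In microglia the 1 gene with 20 UMIs did not meet the rule (log2 ratio 3.79). Chil3 was also among the 10 leading genes of macrophage cluster 8. Genes of late or activated neutrophils gave 0 higher and 5 lower of 15 in neutrophils for depletion over anti-CTLA-4 (median −0.79). Of all genes 8.21% were called lower there. The 5 included Csf3r, the G-CSF receptor, at 653 and 1620 CPM (0.403, 0.344 to 0.475). For anti-CTLA-4 over IgG 2 of 14 were higher and 1 lower (median 0.20), beside 2.62% of all genes each way. G0s2, an inhibitor of fat breakdown, stood at 982 and 179 CPM (5.48, 3.53 to 8.81). Against healthy brain 6 of 13 were higher and 1 lower in IgG neutrophils and 8 of 15 higher and 1 lower in depletion neutrophils, beside 35.5% and 33.9% of all genes called higher.

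Of 7 other receptors for neutrophil attractants, 1 met the rule in depletion over anti-CTLA-4: Ptafr, the receptor of platelet-activating factor, at 188 and 629 CPM (0.298, 0.228 to 0.394). None of 6 did so in anti-CTLA-4 over IgG. The chemerin-binding Ccrl2 stood at 316 CPM in depletion and 4.33 CPM in healthy brain neutrophils (73.1, 28.3 to 270). Genes known to respond to tissue dissociation, a technical sign, gave 0 of 15 past the rule in depletion over anti-CTLA-4 and 0 of 11 in anti-CTLA-4 over IgG (medians 0.09 and −0.04). They gave 4 higher and 1 lower of 14 in IgG and 3 higher and 1 lower of 16 in depletion against healthy brain. Of all genes with at least 50 UMIs, 35.5% and 33.9% were called higher there. Over genes with at least 20 UMIs, as in the list counts, it was 803 of 4290 and 1447 of 6507. The part of the dissociation genes in the Cxcl2 differences there was not tested. Hypoxia and glycolysis genes gave 0 higher and 2 lower of 13 for depletion over anti-CTLA-4 (median −0.79) and none of 8 for anti-CTLA-4 over IgG. Beside the counts of these 3 lists, 10.3% of all genes were called higher and 8.21% lower for depletion over anti-CTLA-4. For anti-CTLA-4 over IgG it was 2.62% each way.

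Within cluster 9 of the depletion library, cells with and without Cxcl2 could be set beside each other at 1 depth. Of cells thinned to 1000 UMIs, 98 had a Cxcl2 UMI and 243 had none. Il1b, the interleukin-1 beta gene, was found in 70.4% of the cells with Cxcl2 and 40.3% of those without, the chemokine Ccl6 in 44.9% and 16.05%, and the NF-kappaB regulator Nfkbiz in 13.3% and 2.47%. Of the 20 NF-kappaB genes, 14 had a higher share with Cxcl2 and 4 a lower one, among them Csf1 in 11.2% and 19.3%, and 2 had no UMI. Granule genes went both ways, Lcn2 in 70.4% and 50.2% and Chil3 in 24.5% and 37.4%. Siglecf, a lectin found on some tumor neutrophils in the mouse, was in 1.02% and 11.9%. These are cells of 1 library, and no test was made.

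Over 35 points (class and library with at least 20 cells), which share libraries and depth, the genes whose log2 level was most like that of Cxcl2 were Entpd3 (Pearson's r 0.91), A530013C23Rik (0.91), Ambp (0.90), Gpc3 (0.89) and Gm17619 (0.88). For Cxcl3 they were Ambp (0.91), Entpd3 (0.89), Gpc3 (0.89), Gm37800 (0.87) and Atf1 (0.87). For Cxcr2 they were Mmp9 (0.97), Hdc (0.95), Gm17619 (0.95), Gm20406 (0.95) and Stfa2l1 (0.94), of which Mmp9, a secreted protease, and Hdc, which makes histamine, are known from neutrophils. For Cxcr4 they were Iqgap1 (0.89), Unc119 (0.86), Plxnc1 (0.84), H2afj (0.83) and Gpd2 (0.82). These are the highest of 11874 genes compared and are given as a description.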

How the data were processed

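Gene by cell tables of UMI counts were deposited by the authors, made with Cell Ranger 3.1.0 per the file headers and the mm10 genome per the submitters' processing notes. Aligner settings are not given in the sources used here. The deposited count tables held 3916, 1874, 1484 and 1420 cell barcodes for the depletion, anti-CTLA-4, IgG and healthy brain libraries, with 21471565, 13428840, 9952379 and 7950206 UMIs, and no barcode under 500 UMIs. Each sample was 1 library and formed its own group. Strand and read mapping cannot be checked from counts.

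Barcodes under 200 genes or over 10% mitochondrial UMIs were dropped. Doublets were scored with Scrublet in scanpy 1.11.5 at an expected rate of 0.05. In the IgG and healthy brain libraries its own threshold removed 10 and 12 cells. In the depletion and anti-CTLA-4 libraries it called under 0.5%, so the top 5% of scores below were removed instead, 169 and 90 cells. Counts were scaled to 10000 per cell, and 2000 variable genes, without the 5 genes described, gave 30 components, 15 neighbours and Leiden clusters at resolution 1 (leidenalg 0.10.2, scikit-learn 1.9.0, seed 0), 23 in all. Clusters were named from 18 marker lists. The 10 leading genes of a cluster were checked against cells outside its class, since clusters of 1 class share genes.

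Ratios were planned for classes with 50 or more cells in both libraries, and those of neutrophils (at least 40) were added after seeing the data, as were depletion over healthy brain, the values in cluster 15 alone, those without cluster 8 or 10 and those without the highest cells. Intervals came from scipy 1.17.1. The 5 genes were named in every class, and other genes came from 8 lists described by counts of genes with at least 20 UMIs, or from a rule of likeness (log2 of CPM plus 5, genes with at least 50 UMIs). Of each list up to 4 genes, those with the largest ratios past the size rule, could be named, and 1 of them is not reported here. Those compared between neutrophils with and without Cxcl2 were chosen after their values were seen. The genes and lists were chosen with earlier results of these data known. The ratio and size rule were tested on simulated data drawn with counting error only. That test does not cover a gene held by few cells, such as Cxcl2. Alternatives were other cell and UMI minimums, no doublet removal, resolutions 0.5 and 2, other scalings, thinning to 1000 UMIs and a ratio of 1.5. Promoters came from RefSeq tables of GRCm38.p6 (all 5 genes matched) and gene positions from the GENCODE annotation, read with biopython 1.88. Figures used matplotlib 3.10.9 with numpy 2.4.6 and Python 3.11.15.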

Additional observations from a re-analysis of the deposited data

Results flagged for a closer look

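Cells of clusters that were left without a class name entered none of the comparisons, and no healthy brain cell was among those below. In cluster 21, 27 IgG cells and 3 anti-CTLA-4 cells with a median of 697.5 UMIs and led by Retnla, Ccr3 and Alox15, Cxcr2 stood at 299.99 CPM in the IgG library (10 UMIs, 95% interval 144 to 552). In the same cells Cxcr4 stood at 810.0 CPM (27 UMIs, 534 to 1178). In cluster 20, led by cycling genes, Cxcr4 stood at 8.15 CPM in the 75 cells of the depletion library (5 UMIs). Each is a count in cells outside the comparisons, above the 3 counts that a count of 0 allows, and the part of free RNA in it was not tested. Healthy brain had no cells in these clusters to set beside them.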

How the results depend on the processing

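No paired analysis was possible because each group is 1 library, and there was no replicate to leave out. The number of the 5 genes past the size rule changed as follows. With a minimum of 20 UMIs and no minimum share it was 2 in monocytes for depletion over anti-CTLA-4 and 1 for anti-CTLA-4 over IgG and for IgG over healthy brain (0 before), 2 and 1 in macrophages for depletion over anti-CTLA-4 and anti-CTLA-4 over IgG (1 and 0 before), 1 in each microglia comparison (0 before), and 2 in neutrophils for depletion over anti-CTLA-4 and depletion over healthy brain (1 before). Resolution 0.5 gave 1 in monocytes for depletion over anti-CTLA-4 and a ratio of 1.5 gave 1 for IgG over healthy brain. Macrophages for depletion over anti-CTLA-4 gave 2 without doublet removal, 0 with thinned cells and 0 without cluster 8. Thinning gave 0 in T cells and 0 in B cells for IgG over healthy brain (1 before) and 0 in neutrophils (3 before), where mean per-cell CPM and median-of-ratios scaling each gave 1. For depletion over anti-CTLA-4 in neutrophils both of these gave 0 (1 before). The causes were not tested. At least 500 genes per cell moved none of the values. No called ratio changed its direction. With every class given equal weight, 20 of 21 shares of UMIs held by a class moved. The 2 UMIs of Cxcl1 allow no comparison, and the 47 and 49 neutrophils of the anti-CTLA-4 and IgG libraries limit the precision of theirs.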
